A study of Homo sapiens with 60 samples.

Results

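The conjugating enzymes are the transferases that attach a large polar group to drugs, hormones, bile acids and reactive metabolites. Their mRNAs are described here in HepG2, an established cell line from a human liver cancer with many traits of hepatocytes, after 24 h with herbal water extracts, wortmannin or a vehicle. The genes were chosen by symbol, as all genes of the count table in the UGT1A, UGT2A, UGT2B, SULT, GSTA, GSTM, GSTP, GSTT, GSTO, GSTK, GSTZ and MGST families with pseudogenes left out. This gave 52 of the 60675 genes in the table. The 24 genes with a mean of 1 CPM or more in any of the 20 groups (CPM, the count scaled to the same total in every library) were analysed, and the other 28 were not. All 24 also passed the filter on low counts that preceded the test.

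UDP-glucuronosyltransferases (UGT) add glucuronic acid, sulfotransferases (SULT) add a sulfate group from the donor PAPS, and glutathione S-transferases (GST, with the membrane-bound MGST) add the tripeptide glutathione. The conjugates are more soluble in water and leave the cell through export pumps of the ABCC family. The liver is the main organ of all 3 reactions, and several of these genes are textbook targets of the factors NRF2, AHR, PXR, CAR and HNF1.

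Wortmannin, an inhibitor of phosphoinositide 3-kinases and the series' positive control, was given at 10 µM. Aucklandiae Radix, Schisandrae Fructus, Liriopis seu Ophiopogonis Tuber, Zizyphi Semen and Longan Arillus were each given at 20, 100 and 500 µg/mL. For Polygalae Radix the doses were 18, 90 and 450 µg/mL. These are called low, medium and high doses below. The vehicle was DMSO, at 0.1% in the labels and 2% in the design text, so its level is uncertain. Every group had 3 libraries, and all groups were cells of the same line, so nothing here speaks of other hepatocytes. The labels do not say whether the 3 came from separate cultures, so the p-values speak of the spread among these libraries alone, and that spread may be technical.

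Total counts ran from 20.21 to 36.41 M (mega) counts per library. The sample codes fall into 5 sets whose meaning is not stated. The vehicle and wortmannin have a set each, and Polygalae with Aucklandiae, Liriopis with Schisandrae and Longan with Zizyphi share one. A treatment effect and a set effect therefore cannot be told apart in any comparison with the vehicle, while high and low doses of an extract share a set. In 4 libraries, among them vehicle replicate 1, genes of high GC content were read relatively least (the lowest slopes of log2 deviation on GC content). Results that turn on these libraries are given with and without them. All 8 hepatocyte markers were detected, with sums of 36100 to 50600 CPM over the groups, while PTPRC of leukocytes and CFTR of bile duct cells had 0 counts in all libraries. The 5 macrophage and leukocyte markers summed to 943 to 1690 CPM over the groups, mostly LYZ, and the 4 bile duct markers to 404 to 500 CPM, mostly SOX9, and their part in the results was not tested. Levels were measured per library of many cells, so fewer expressing cells and less RNA per cell cannot be told apart.

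Promoter sequences are shown for the GSTA pair and the SULT1A3 and SULT1A4 pair, the 4 genes with the highest log2 fold changes against the vehicle, and for GSTO1, which was called in the most comparisons with the vehicle (13 of 19). They are RefSeq sequences on build GRCh38.p14, 250 bases before to 50 bases after the start of the gene, written 5′ to 3′ on the gene's strand. GSTA1 (chr6:52803767-52804066, minus strand) and GSTA2 (chr6:52763426-52763725, minus strand) differed at 12 of 300 bases, which are in capitals.
GSTA1: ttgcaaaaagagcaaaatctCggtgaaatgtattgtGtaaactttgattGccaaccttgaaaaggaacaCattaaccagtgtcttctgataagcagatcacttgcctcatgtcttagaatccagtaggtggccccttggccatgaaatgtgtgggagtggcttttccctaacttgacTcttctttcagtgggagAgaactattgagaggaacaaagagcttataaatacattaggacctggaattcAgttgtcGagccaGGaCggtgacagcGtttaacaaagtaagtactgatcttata
GSTA2: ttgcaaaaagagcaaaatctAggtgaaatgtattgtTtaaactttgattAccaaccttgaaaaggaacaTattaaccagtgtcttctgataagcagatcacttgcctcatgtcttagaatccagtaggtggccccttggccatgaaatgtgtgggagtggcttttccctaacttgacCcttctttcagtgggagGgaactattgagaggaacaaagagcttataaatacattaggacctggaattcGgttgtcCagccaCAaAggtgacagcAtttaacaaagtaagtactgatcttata
The promoter of SULT1A3 (chr16:30199005-30199304, plus strand) was identical at all 300 bases to that of SULT1A4 (chr16:29459663-29459962, plus strand), so it is printed once, with no capitals.
SULT1A3: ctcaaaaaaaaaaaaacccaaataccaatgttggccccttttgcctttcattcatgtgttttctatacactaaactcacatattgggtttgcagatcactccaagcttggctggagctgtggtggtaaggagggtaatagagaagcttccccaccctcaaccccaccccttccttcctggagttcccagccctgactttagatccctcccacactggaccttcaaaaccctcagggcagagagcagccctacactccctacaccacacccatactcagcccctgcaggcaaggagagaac
In GSTO1 (chr10:104254642-104254941, plus strand) the capitals mark both matches to TGACNNNGC.
GSTO1: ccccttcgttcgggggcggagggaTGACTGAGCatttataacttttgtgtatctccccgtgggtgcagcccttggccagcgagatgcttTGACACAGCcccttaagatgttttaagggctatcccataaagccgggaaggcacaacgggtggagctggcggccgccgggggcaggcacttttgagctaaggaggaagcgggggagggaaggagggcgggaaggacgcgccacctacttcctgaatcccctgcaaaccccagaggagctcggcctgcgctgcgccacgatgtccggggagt

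Matches on both strands were counted for TGACNNNGC, the core of the antioxidant response element, for GCGTG, the core of the AHR element, and for GTTAAT, a half-site of HNF1. RefSeq promoters were found for 20 of the 24 genes (23 promoters), and MGST2, SULT1A1, SULT1A2 and UGT2B4 had no entry. A gene counts with a match in any of its promoters, while the shares of all promoters count each promoter singly. TGACNNNGC was found in 5 of the 20 genes (GSTA4, GSTO1, MGST1, SULT1C2 and UGT2B10), against 13.3% of all 35116 promoters. In GSTO1 its matches began 226 and 161 bases before the start. GCGTG was found in 6 of the 20 genes (GSTM3, GSTM4, GSTO2, GSTZ1, MGST3 and SULT2A1), against 36.5% of all promoters. GTTAAT was found in 3 of the 20 genes (GSTA1, GSTA2 and MGST1), against 6.88% of all promoters. In both GSTA genes it is the reverse complement attaac, 180 bases before the start, and none of the 12 differing bases falls in it. A match describes the letters only and is no binding site.

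Per length of transcript, MGST1, a glutathione transferase of the endoplasmic reticulum and outer mitochondrial membrane, had the highest level in the vehicle, with 114 ± 17.9 CPM per kb (SD, n = 3). SULT2A1, which sulfates DHEA and bile acids, followed with 46.6 ± 1.65 CPM per kb. GSTO1, an omega class enzyme that acts mainly as a thiol transferase and reductase, had 46.6 ± 7.1 CPM per kb. SULT1A1, the main phenol sulfotransferase of liver, had 43.3 ± 1.14, and GSTA1, the main alpha class enzyme of liver, had 41.3 ± 2.73 CPM per kb. The order among these genes after MGST1 lies within their spread, apart from that of SULT2A1 over SULT1A1 and GSTA1. The ranking is of single genes. SULT1A3 and SULT1A4, which encode the same enzyme and share most of their sequence, had 35.7 ± 10.3 and 41 ± 9.88 CPM per kb. Their sum was 104 ± 0.637 CPM over transcripts of 1326 and 1390 bases, against 92.6 ± 3.29 CPM of SULT2A1 over 1987 bases. UGT2B10, which glucuronidates amines, was the highest UGT with 34.3 ± 1.87 CPM per kb, and UGT2B4, a bile acid UGT, was the lowest analysed gene with 0.722 ± 0.115 CPM per kb.

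**Figure D1:**
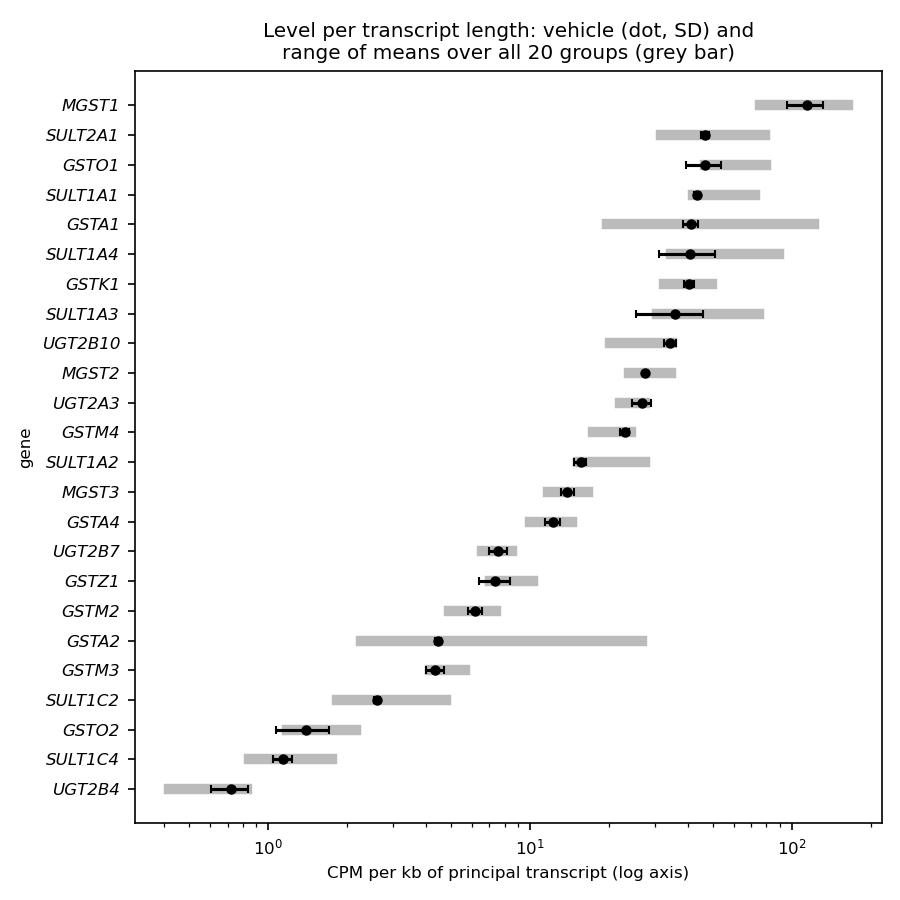
Level per length of the 24 analysed genes, in CPM per kb of principal transcript on a log axis. Dots are vehicle means with SD over 3 libraries, and grey bars span the means of all 20 groups. GSTA2 and GSTA1 have the widest bars (11.8- and 6.17-fold between the highest and lowest group mean).

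Several genes of these families were near or at 0. The 9 UGT1A genes, which include the bilirubin enzyme UGT1A1, each stayed under 0.5 CPM in every library, and UGT1A1 peaked at 0.475 CPM. These genes share their last exons, and between 33.2% and 75.6% of their 100-base windows occur in another gene, so the division of reads among them is uncertain. Their sum was low too, with 0.352 ± 0.102 CPM in the vehicle (SD, n = 3). The counting tool divides reads among similar genes, but whether reads of the shared exons were lost on the way is not stated and was not tested. Low counts of UGT1A are therefore no measure of absent mRNA. UGT1A5, UGT1A7, UGT1A8, GSTA5, SULT1C3 and SULT4A1 had 0 counts in all 60 libraries. GSTP1, the pi class enzyme, reached 0.0703 CPM in its highest library. The genes nearest the limit of 1 CPM were GSTT2B and SULT1E1, with highest group means of 0.995 and 0.957 CPM, and UGT2B4 and GSTO2 just inside, with 1.74 and 2.55 CPM. Of the 100-base windows of GSTT2B 80% occur in GSTT2, and 18.4% of those of SULT1E1 occur in another gene. Their places under the limit therefore depend on the division of reads. The other genes under the limit were GSTA3, GSTM1, GSTM5, GSTT4, SULT1B1, SULT2B1, SULT6B1, UGT2A1, UGT2A2, UGT2B11, UGT2B15, UGT2B17 and UGT2B28, of which UGT2B11 was highest with 0.663 CPM.

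**Figure D2:**
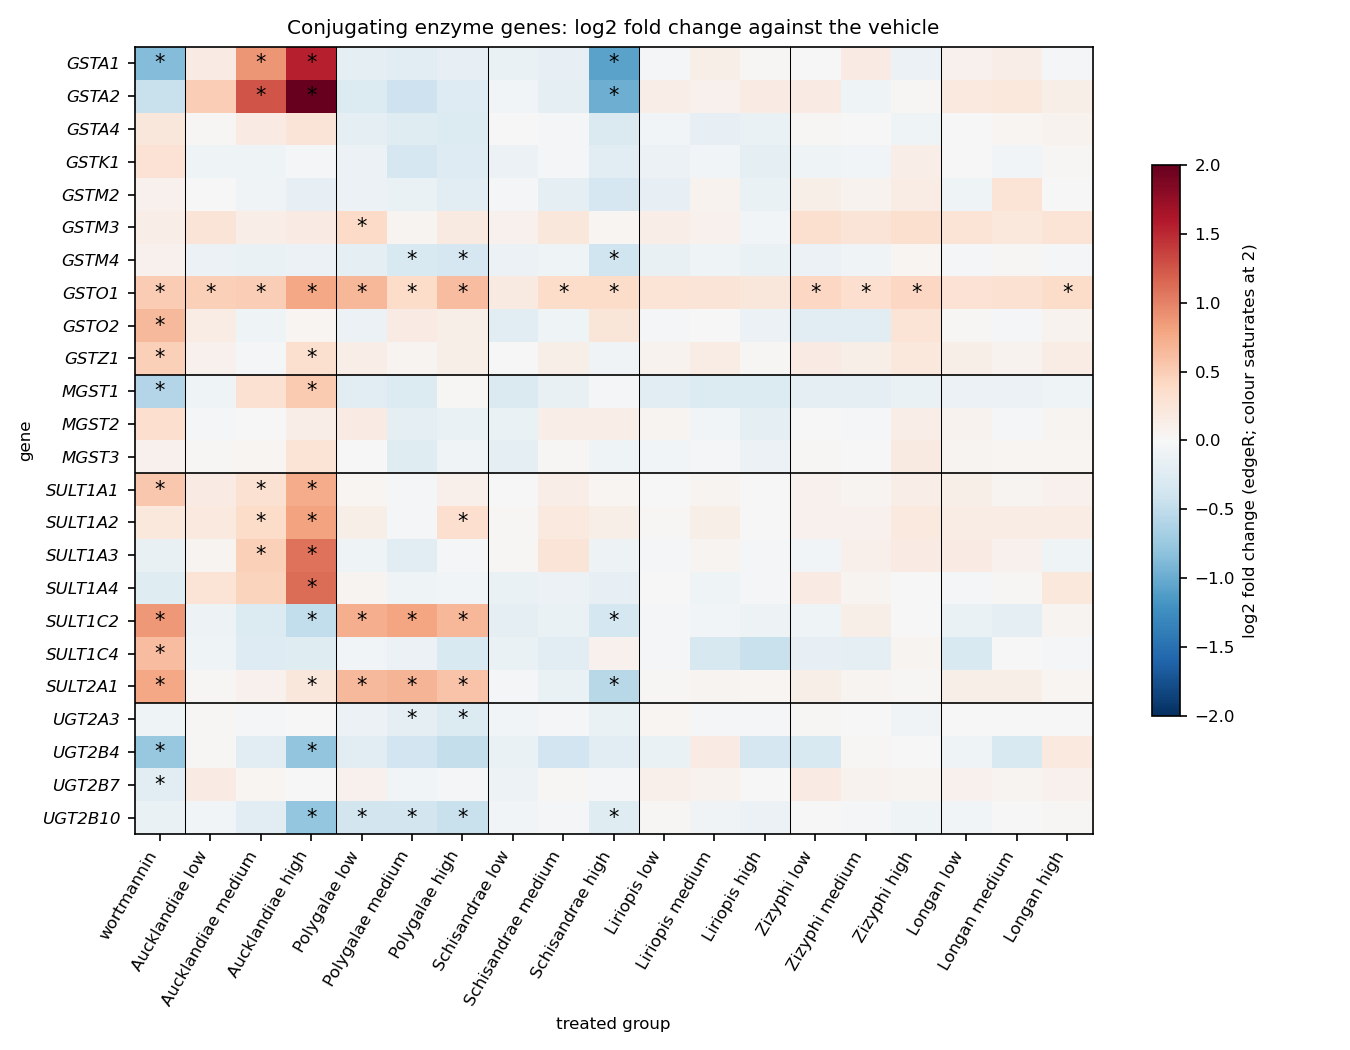
Log2 fold change of each analysed gene (rows, grouped as GST, MGST, SULT and UGT) in each treated group (columns) against the vehicle. Red is higher, blue is lower, the colour saturates at 2, and asterisks mark an adjusted p under 0.05. The columns of high-dose Aucklandiae and wortmannin hold 13 and 11 asterisks, and the 3 Liriopis columns hold 0.

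High-dose Aucklandiae, the dried root of a plant of the daisy family, gave the largest changes. The alpha class genes GSTA1 and GSTA2 and the SULT1A genes rose there, and UGT2B10 and UGT2B4 fell. Of the 24 genes, 10 rose and 3 fell against the vehicle (54.2% called), while 26.1% of all 16517 tested genes were called, 13.6% higher and 12.5% lower. In a separate fit of the 13152 genes with at least 1 CPM in 30 libraries, a level closer to that of the 24, 32.6% were called. The median log2 fold change was 0.195 over the 24 genes and 0 over all tested genes. By family, 4 of 10 GST, 1 of 3 MGST and 5 of 7 SULT genes rose, and 1 SULT and 2 of 4 UGT genes fell.

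GSTA2, an alpha class enzyme that conjugates electrophiles and reduces lipid hydroperoxides, had 34.5, 38.1 and 32.6 CPM in high-dose Aucklandiae, against 5.79, 6.03 and 5.75 CPM in the vehicle. All treated libraries lay far above all vehicle libraries, with a log2 fold change of 2.58 ± 0.17 (SE; edgeR adjusted p = 7.2e-17). GSTA1, its neighbour on chromosome 6 with the near-identical promoter shown above, had 125, 132 and 116 CPM in high-dose Aucklandiae, against 45.2, 39.9 and 41 CPM in the vehicle (log2 fold change 1.56 ± 0.14, edgeR adjusted p = 1.2e-12). The groups again did not overlap. The ratio of GSTA1 to GSTA2 was 3.55 ± 0.0745 in high-dose Aucklandiae and 7.18 ± 0.59 in the vehicle (SD, n = 3), so the levels of the pair changed unequally. They share 12% and 9.06% of their 100-base windows with each other, so reads in those parts could be exchanged between them.

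Both genes followed the dose. GSTA1 averaged 42 ± 2.78 CPM in the vehicle and 47.2 ± 8.49, 77.6 ± 13 and 124 ± 8.2 CPM at 20, 100 and 500 µg/mL of Aucklandiae (SD, n = 3). GSTA2 averaged 5.86 ± 0.147 CPM in the vehicle and 8.13 ± 2.38, 14.1 ± 2.34 and 35.1 ± 2.78 CPM along the same doses. Both passed the test at the medium dose (log2 fold changes of 0.88 and 1.26, edgeR adjusted p = 3.5e-05 and 3.2e-06) and not at the low dose. Between high and low dose, which share a code set, the log2 fold changes were 2.09 ± 0.16 for GSTA2 and 1.39 ± 0.14 for GSTA1 (edgeR adjusted p = 2.1e-14 and 3.8e-11). At the medium dose replicate 1 was the highest library for both genes, with 91.6 CPM of GSTA1 and 16.8 CPM of GSTA2.

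SULT1A3 and SULT1A4 encode the same catecholamine sulfotransferase from a duplicated stretch of chromosome 16. SULT1A4 had 118, 135 and 119 CPM in high-dose Aucklandiae, against 70.1, 58.1 and 42.7 CPM in the vehicle (log2 fold change 1.12 ± 0.17, edgeR adjusted p = 7.5e-07). SULT1A3 had 111, 94.4 and 93 CPM in high-dose Aucklandiae, against 34.6, 45.4 and 61.8 CPM in the vehicle (log2 fold change 1.08 ± 0.14, edgeR adjusted p = 8.3e-08). The vehicle library lowest in SULT1A3 was the highest in SULT1A4 and the other way round, and 98.5% and 99% of the 100-base windows of SULT1A3 and SULT1A4 occur in another gene, so the split between them is uncertain. Their sum varied little, with 229, 230 and 212 CPM in high-dose Aucklandiae against 105, 104 and 105 CPM in the vehicle. Counted as a single gene together with their read-through transcripts, they rose by 0.97 ± 0.078 on the log2 scale at the high dose and by 0.4 ± 0.078 at the medium dose (edgeR adjusted p = 6.5e-14 and 0.00084). At the low dose the difference was 0.19 ± 0.078 and did not pass the test (edgeR adjusted p = 0.16).

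SULT1A2, a further phenol sulfotransferase next to SULT1A1, had 37.4, 36.7 and 34.7 CPM in high-dose Aucklandiae, against 20, 21.9 and 20.1 CPM in the vehicle (log2 fold change 0.81 ± 0.093, edgeR adjusted p = 1.6e-09). SULT1A1 averaged 135 ± 8.95 CPM in high-dose Aucklandiae and 81.1 ± 2.12 CPM in the vehicle (SD, n = 3), a log2 fold change of 0.74 ± 0.081 (edgeR adjusted p = 4.6e-10). Both also rose at the medium dose, by 0.37 and 0.31 on the log2 scale, but neither call held there when vehicle replicate 1 or 3 was left out (0.35 for SULT1A2 and 0.3 for SULT1A1 without either), nor that of SULT1A1 without treated replicate 1 (0.25). GSTO1 had 77.5, 80.1 and 74.3 CPM in high-dose Aucklandiae, against 37.4, 49.9 and 48.7 CPM in the vehicle (log2 fold change 0.77 ± 0.085, edgeR adjusted p = 6.4e-10). SULT2A1 had 107, 113 and 105 CPM in high-dose Aucklandiae, against 95.9, 89.4 and 92.4 CPM in the vehicle, a small rise with a narrow gap between the groups (0.23 ± 0.072). MGST1 rose by 0.53 ± 0.15 and GSTZ1, an isomerase of tyrosine breakdown, by 0.32 ± 0.089 on the log2 scale.

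The UGT genes moved the other way or did not pass the test. UGT2B10 averaged 39 ± 3.18 CPM in high-dose Aucklandiae and 66.3 ± 3.6 CPM in the vehicle (SD, n = 3), a log2 fold change of -0.77 ± 0.07 (edgeR adjusted p = 3.7e-12). UGT2B4 had 0.866, 0.643 and 1.12 CPM in high-dose Aucklandiae, against 1.8, 1.37 and 1.39 CPM in the vehicle (log2 fold change -0.79 ± 0.21, edgeR adjusted p = 0.0029). At this low level its groups stayed apart, but by little. UGT2B7, an enzyme of morphine and steroid glucuronidation, averaged 14.5 ± 0.134 CPM in high-dose Aucklandiae and 14.3 ± 1.12 CPM in the vehicle. UGT2A3, a bile acid UGT, averaged 80 ± 1.27 CPM in high-dose Aucklandiae and 79.1 ± 6.43 CPM in the vehicle, and neither passed the test. SULT1C2, a sulfotransferase of fetal tissues, had 5.2, 5.4 and 4.82 CPM in high-dose Aucklandiae, against 7.27, 7.06 and 7.43 CPM in the vehicle (log2 fold change -0.5 ± 0.09, edgeR adjusted p = 2.8e-05).

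Between high- and low-dose Aucklandiae, 8 of the 24 genes rose and 3 fell, with 14.9% of all tested genes called (7.77% higher and 7.14% lower). The genes that rose were GSTA2, GSTA1, SULT1A3, SULT1A4, SULT1A2, MGST1, SULT1A1 and GSTO1, and those that fell were UGT2B4, UGT2B10 and SULT1C2. Of these, the call of UGT2B4 did not hold without high-dose replicate 2 (-0.64), nor that of SULT1C2 without low-dose replicate 1 (-0.3), and neither held in a fit of the libraries of both doses alone (-0.81 and -0.4). At the medium dose GSTA2, GSTA1, GSTO1, SULT1A3, SULT1A2 and SULT1A1 rose and 0 fell against the vehicle, 25% of the 24 genes (5.52% of all tested genes called, 3.05% higher and 2.47% lower). At the low dose GSTO1 alone was called, as higher (4.45%, with 2.19% higher and 2.26% lower). In fits of the compared libraries alone, the medium-dose calls of GSTO1 (0.49), SULT1A3 (0.47), SULT1A2 (0.36) and SULT1A1 (0.3) and the low-dose call of GSTO1 (0.46) did not hold. Without the 4 libraries of lowest GC slope the medium-dose calls of SULT1A3 (0.29), SULT1A2 (0.36) and SULT1A1 (0.32) did not hold, and that of SULT1A3 did not hold without vehicle replicate 1 (0.3) or 2 (0.45) or treated replicate 2 (0.45) or 3 (0.48). The calls of UGT2B4 and GSTZ1 at the high dose did not hold without vehicle replicate 1 (log2 fold changes of -0.63 and 0.23) or without the 4 libraries (-0.64 and 0.22), nor that of MGST1 without vehicle replicate 3 (0.42). The call of SULT2A1 did not hold without vehicle replicate 2 or treated replicate 2 (0.2 each).

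**Figure D3:**
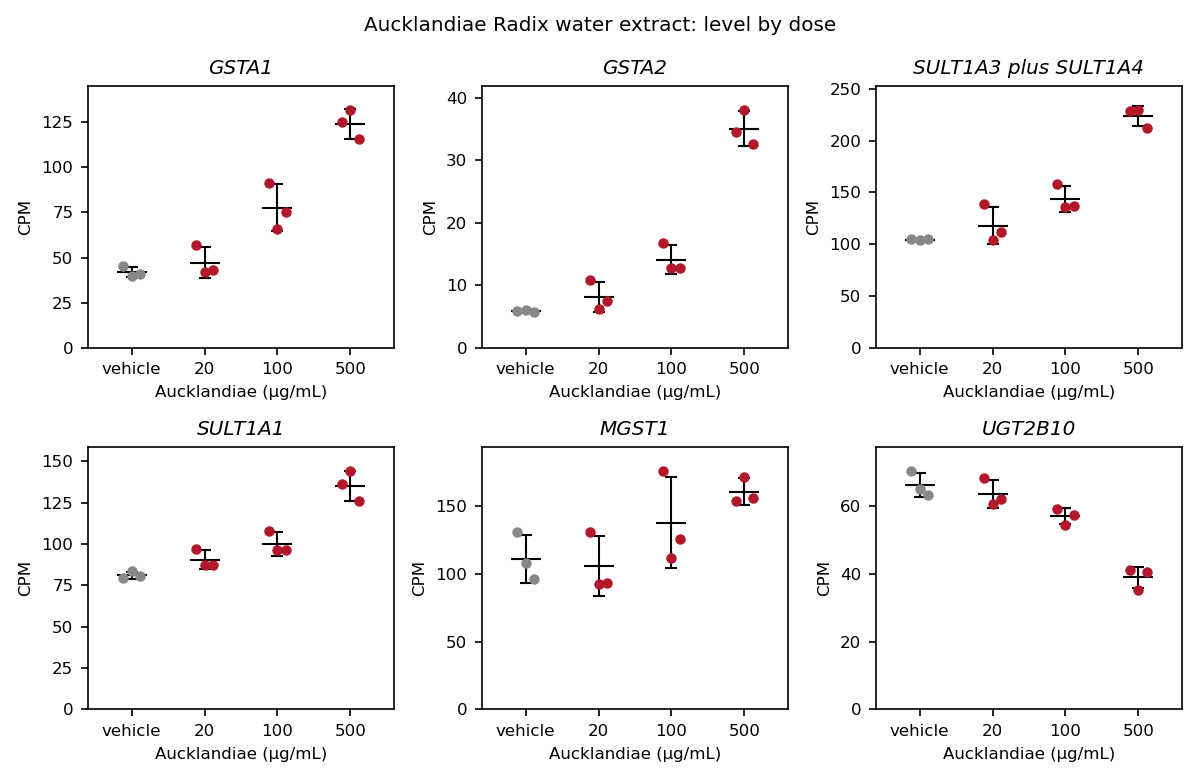
Level in CPM of 5 genes and of the sum of SULT1A3 and SULT1A4 in the vehicle and at 20, 100 and 500 µg/mL of Aucklandiae. Points are libraries, and bars are the mean with SD (n = 3). From the vehicle to the highest dose the means of GSTA2 are 5.86, 8.13, 14.1 and 35.1 CPM, and those of UGT2B10 are 66.3, 63.8, 57.1 and 39 CPM.

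Polygalae shares the code set of Aucklandiae, and the effect of dose was compared between them. The high minus low difference was larger in Aucklandiae by 2.07 ± 0.25 for GSTA2, 1.37 ± 0.2 for GSTA1, 0.95 ± 0.23 for SULT1A4 and 0.94 ± 0.2 for SULT1A3 on the log2 scale. For UGT2B10 it was lower by -0.63 ± 0.099. These 5 passed the test of the difference (edgeR adjusted p = 5.9e-08, 1.8e-06, 0.0056, 0.0014 and 9.3e-06). They were chosen for a change past 1.5-fold between the doses in the same libraries. SULT1A1 (0.52) and GSTO1 (0.37) also passed, but moved by less than 1.5-fold between the doses of either extract. SULT1A2, MGST1, UGT2B4 and SULT1C2, also called between the doses of Aucklandiae, were not called for the difference. Of the 24 genes, chosen or not, 7 were called for it (29.2%), and 6.82% of all tested genes (4.18% with a larger and 2.63% with a smaller value in Aucklandiae). The doses differ, 500 against 20 µg/mL in Aucklandiae and 450 against 18 µg/mL in Polygalae.

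In Polygalae SULT2A1 and SULT1C2 rose and UGT2B10 fell at every dose. At the high dose 4 of the 24 genes rose and 3 fell against the vehicle (29.2% called), with 20.1% of all tested genes called (10.2% higher and 9.94% lower). In the separate fit of genes with at least 1 CPM in 30 libraries 25.9% were called, so the share of the 24 genes lies near that of genes of like level. The median log2 fold change was -0.06 over the 24 genes and 0.006 over all tested genes.

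SULT1C2 had 11.6, 11.6 and 11.1 CPM in high-dose Polygalae, against 7.27, 7.06 and 7.43 CPM in the vehicle (log2 fold change 0.66 ± 0.083, edgeR adjusted p = 4.5e-08). SULT2A1 had 138, 139 and 136 CPM in high-dose Polygalae, against 95.9, 89.4 and 92.4 CPM in the vehicle (log2 fold change 0.57 ± 0.072, edgeR adjusted p = 4.2e-08). The groups were well apart for both genes. UGT2B10 had 47.8, 47 and 52.3 CPM in high-dose Polygalae, against 70.4, 65.2 and 63.4 CPM in the vehicle (log2 fold change -0.44 ± 0.069, edgeR adjusted p = 5.5e-06).

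Along the doses the means of these genes stayed close to each other. SULT2A1 averaged 92.6 ± 3.29 CPM in the vehicle and 146 ± 2.6, 148 ± 17.2 and 138 ± 1.74 CPM at 18, 90 and 450 µg/mL of Polygalae (SD, n = 3). SULT1C2 averaged 7.25 ± 0.185 CPM in the vehicle and 12 ± 0.454, 12.6 ± 0.495 and 11.4 ± 0.32 CPM along the same doses. UGT2B10 averaged 66.3 ± 3.6 CPM in the vehicle and 51.8 ± 0.89, 51.8 ± 1.35 and 49.1 ± 2.87 CPM. In low-dose Aucklandiae, of the same code set but another dose (20 µg/mL), SULT2A1 averaged 94.7 ± 10.3, SULT1C2 6.73 ± 0.751 and UGT2B10 63.8 ± 4.14 CPM. Between high and low Polygalae 0 of the 24 genes passed edgeR's or DESeq2's test, 3 had an unadjusted p under 0.05, and 3.93% of all tested genes were called (1.23% higher and 2.7% lower). At the medium dose 3 genes rose and 3 fell (11.7% of all tested genes called, 5.93% higher and 5.73% lower). At the low dose 4 rose and 1 fell (15.6%, with 8.63% higher and 7.01% lower).

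GSTO1 had 69.8, 67.4 and 69.4 CPM in high-dose Polygalae, against 37.4, 49.9 and 48.7 CPM in the vehicle (log2 fold change 0.61 ± 0.085, edgeR adjusted p = 5e-07). SULT1A2 had 26.1, 27.2 and 25.4 CPM in high-dose Polygalae, against 20, 21.9 and 20.1 CPM in the vehicle (log2 fold change 0.34 ± 0.094, edgeR adjusted p = 0.0058). GSTM4, a mu class enzyme, had 26, 27.1 and 24 CPM in high-dose Polygalae, against 33.2, 31 and 33.3 CPM in the vehicle (log2 fold change -0.34 ± 0.095, edgeR adjusted p = 0.0078). In each of these genes the groups did not overlap. UGT2A3 fell by 0.27 ± 0.054 at the high dose and by 0.18 ± 0.054 at the medium dose on the log2 scale. GSTM3, another mu class enzyme, was called at the low dose alone (0.38 ± 0.11). GSTM4 at the high dose did not hold without treated replicate 3 (-0.29). At the low dose GSTM3 did not hold without vehicle replicate 1 (0.31), treated replicate 2 (0.34) or the 4 libraries of lowest GC slope (0.31). At the medium dose GSTM4 (-0.31), UGT2A3 and GSTO1 (0.37) did not hold without vehicle replicate 1 (-0.29, -0.1 and 0.25), without the 4 libraries (-0.3, -0.11 and 0.24) or in a fit of the compared libraries alone (-0.32, -0.18 and 0.36). GSTM4 also did not hold there without vehicle replicate 3 or treated replicate 2 or 3 (-0.3, -0.19 and -0.3), and UGT2A3 without treated replicate 2 or 3 (-0.15 and -0.18) or without the filter on low counts (-0.16).

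With wortmannin SULT2A1 and SULT1C2 also rose, and GSTA1 and MGST1 fell. Of the 24 genes, 7 rose and 4 fell against the vehicle (45.8% called), with 32.6% of all tested genes called (16.4% higher and 16.2% lower). In the separate fit of genes with at least 1 CPM in 30 libraries 40.1% were called, near the share of the 24 genes. The median log2 fold change was 0.104 over the 24 genes and 0.008 over all tested genes. The genes that rose were 4 of 7 SULT and 3 of 10 GST genes, and those that fell were 2 of 4 UGT, 1 GST and 1 MGST gene.

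SULT1C2 had 13.6, 13.3 and 13 CPM with wortmannin, against 7.27, 7.06 and 7.43 CPM in the vehicle (log2 fold change 0.87 ± 0.083, edgeR adjusted p = 7.1e-12). SULT2A1 had 159, 154 and 159 CPM with wortmannin, against 95.9, 89.4 and 92.4 CPM in the vehicle (log2 fold change 0.77 ± 0.072, edgeR adjusted p = 5.2e-12). For both genes wortmannin had the highest mean of all 20 groups. SULT1C4, another sulfotransferase of fetal tissues, had 3.31, 3.58 and 2.87 CPM with wortmannin, against 2.32, 2.02 and 2.01 CPM in the vehicle (log2 fold change 0.61 ± 0.15, edgeR adjusted p = 0.0011). SULT1A1 averaged 118 ± 3.68 CPM with wortmannin and 81.1 ± 2.12 CPM in the vehicle (SD, n = 3).

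GSTA1 had 24.5, 25 and 20.2 CPM with wortmannin, against 45.2, 39.9 and 41 CPM in the vehicle (log2 fold change -0.86 ± 0.15, edgeR adjusted p = 7.4e-06). GSTA2 averaged 4.3 ± 0.523 CPM with wortmannin and 5.86 ± 0.147 CPM in the vehicle, a log2 fold change of -0.45 that did not pass the test (edgeR adjusted p = 0.078). UGT2B4 had 0.907, 0.809 and 0.969 CPM with wortmannin, against 1.8, 1.37 and 1.39 CPM in the vehicle (log2 fold change -0.76 ± 0.21, edgeR adjusted p = 0.0033). GSTO2, an omega class enzyme that reduces dehydroascorbate, had 2.45, 2.6 and 2.61 CPM with wortmannin, against 1.4, 2.07 and 1.44 CPM in the vehicle (log2 fold change 0.65 ± 0.2, edgeR adjusted p = 0.0081). The groups did not overlap for GSTA1, UGT2B4 or GSTO2.

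MGST1 averaged 74.3 ± 4.53 CPM with wortmannin and 111 ± 17.6 CPM in the vehicle (SD, n = 3). GSTZ1 averaged 13.8 ± 0.909 CPM with wortmannin and 9.87 ± 1.31 CPM in the vehicle. UGT2B7 averaged 12.4 ± 0.4 CPM with wortmannin and 14.3 ± 1.12 CPM in the vehicle. The calls of GSTO2, UGT2B4 and UGT2B7 did not hold without vehicle replicate 1, at log2 fold changes of 0.53, -0.63 and -0.16. That of UGT2B7 did not hold without wortmannin replicate 1 (-0.19) or without the filter on low counts (-0.22) either, and without the 4 libraries of lowest GC slope neither UGT2B4 (-0.62) nor UGT2B7 (-0.15) held.

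**Figure D4:**
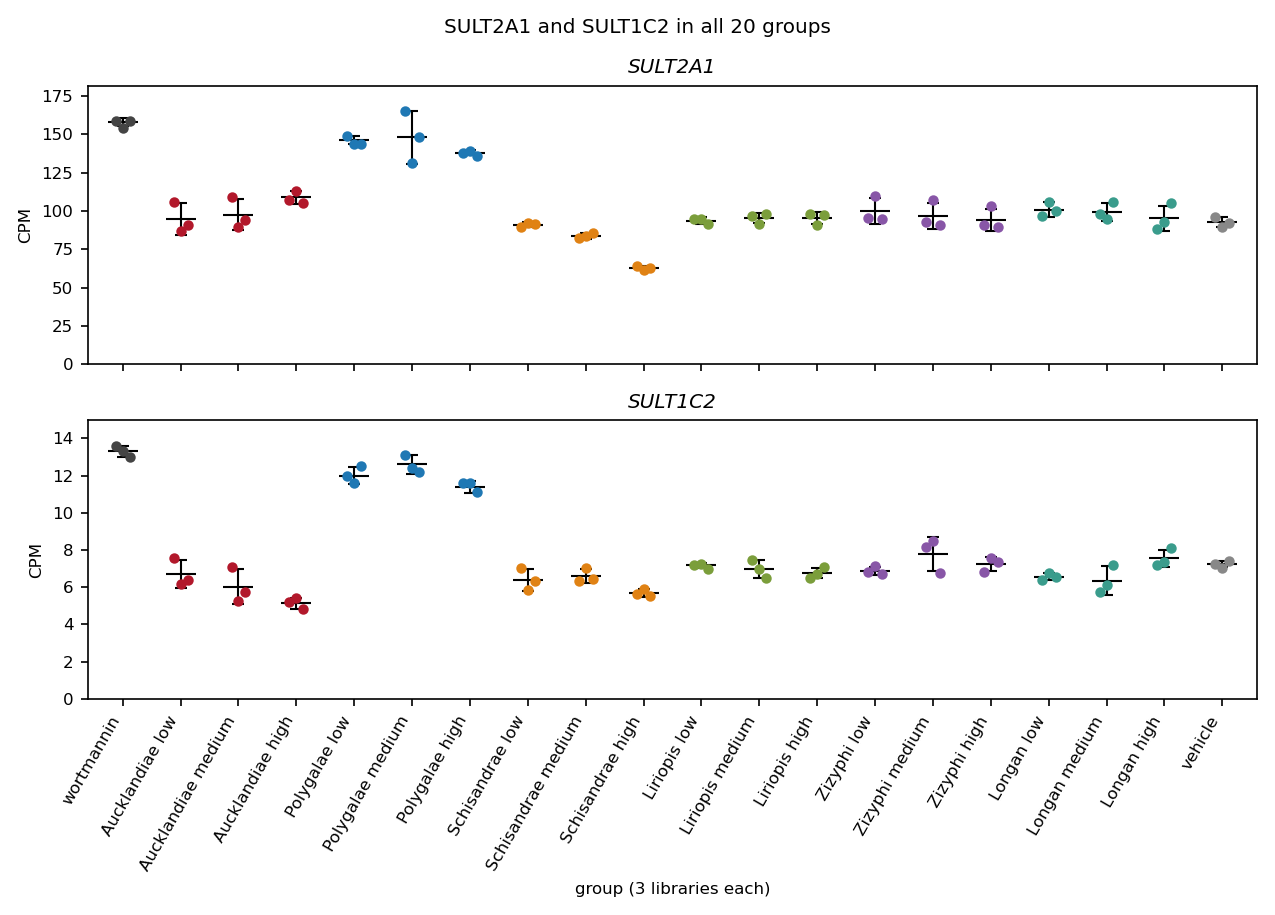
Level in CPM of SULT2A1 and SULT1C2 in all 20 groups, with points for libraries and bars for the mean with SD (n = 3). Wortmannin (158 and 13.3 CPM) and the 3 Polygalae groups lie above the vehicle (92.6 and 7.25 CPM), and high-dose Schisandrae lies below it (63 and 5.69 CPM). In high-dose Aucklandiae SULT2A1 lies above the vehicle (109 CPM) and SULT1C2 has its lowest mean (5.14 CPM).

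In high-dose Schisandrae GSTA1, GSTA2 and SULT2A1 fell. Of the 24 genes, 1 rose and 6 fell against the vehicle (29.2% called), with 15.7% of all tested genes called (8.4% higher and 7.25% lower). In the separate fit of genes with at least 1 CPM in 30 libraries 20.2% were called. The median log2 fold change was -0.118 over the 24 genes and -0.006 over all tested genes.

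GSTA1 had 17.8, 20.8 and 21.7 CPM in high-dose Schisandrae, against 45.2, 39.9 and 41 CPM in the vehicle (log2 fold change -1.07 ± 0.15, edgeR adjusted p = 3.5e-07). GSTA2 had 3.02, 3.08 and 2.85 CPM in high-dose Schisandrae, against 5.79, 6.03 and 5.75 CPM in the vehicle (log2 fold change -0.97 ± 0.21, edgeR adjusted p = 0.00073). Both genes were at their lowest group mean of the series here, and no library overlapped the vehicle. Their ratio was 6.75 ± 0.862 in high-dose Schisandrae and 7.18 ± 0.59 in the vehicle (SD, n = 3), within the spread.

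SULT2A1 had 64.1, 61.7 and 63.2 CPM in high-dose Schisandrae, against 95.9, 89.4 and 92.4 CPM in the vehicle (log2 fold change -0.56 ± 0.074, edgeR adjusted p = 1e-07). GSTM4 had 22.5, 25.5 and 25.8 CPM in high-dose Schisandrae, against 33.2, 31 and 33.3 CPM in the vehicle (log2 fold change -0.4 ± 0.096, edgeR adjusted p = 0.002). SULT1C2 had 5.64, 5.93 and 5.51 CPM in high-dose Schisandrae, against 7.27, 7.06 and 7.43 CPM in the vehicle (log2 fold change -0.35 ± 0.09, edgeR adjusted p = 0.0048). The groups stayed apart in all 3, but the call of SULT1C2 did not hold without the filter on low counts (-0.35). UGT2B10 fell by 0.24 ± 0.069 on the log2 scale, a call that did not hold without vehicle replicate 1 (-0.18) or without the 4 libraries of lowest GC slope (-0.19).

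These genes passed the test at the highest dose alone. GSTA1 averaged 42 ± 2.78 CPM in the vehicle and 38 ± 4.97, 37.4 ± 1.26 and 20.1 ± 2.05 CPM at 20, 100 and 500 µg/mL of Schisandrae (SD, n = 3). SULT2A1 averaged 92.6 ± 3.29 CPM in the vehicle and 91 ± 1.54, 83.8 ± 1.71 and 63 ± 1.21 CPM along the same doses. At the medium dose GSTO1 alone was called, as higher (2.98% of all tested genes, 1.79% higher and 1.2% lower). At the low dose 0 of the 24 genes passed edgeR's or DESeq2's test, 2 had an unadjusted p under 0.05, and 0.0727% of all tested genes were called (0.0545% higher and 0.0182% lower). Between high and low dose GSTA1 (-0.92 ± 0.15), GSTA2 (-0.91 ± 0.21) and SULT2A1 (-0.53 ± 0.073) fell on the log2 scale and 0 of the 24 genes rose (edgeR adjusted p = 8.6e-06, 0.002 and 3.6e-07), with 9.99% of all tested genes called (5.19% higher and 4.8% lower).

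Liriopis, of the same code set and given at the same doses as Schisandrae, gave 0 calls among the 24 genes at every dose. At the low, medium and high dose 1, 1 and 2 genes had an unadjusted p under 0.05, DESeq2 called 0 at each, and edgeR called 0.0303%, 0.0303% and 0.0484% of all tested genes. These comprised 0.0182%, 0.0182% and 0.0424% called higher and 0.0121%, 0.0121% and 0.00605% called lower. At the high dose the log2 fold changes ran from -0.44 (SULT1C4) to 0.22 (GSTO1). GSTA1 averaged 42.8 ± 5.5 CPM in high-dose Liriopis and 42 ± 2.78 CPM in the vehicle (SD, n = 3). Between high and low Liriopis 0 of the 24 genes were called by either tool, 1 had an unadjusted p under 0.05, and edgeR called 0% of all tested genes. The effect of dose differed between Schisandrae and Liriopis for GSTA1 by -0.98 ± 0.21 and for GSTA2 by -0.95 ± 0.28 on the log2 scale (edgeR adjusted p = 0.001 and 0.037). It did so for 4.97% of all tested genes (2.69% with a larger and 2.28% with a smaller value in Schisandrae). SULT2A1 (-0.56 ± 0.1) was also called, but moved by less than 1.5-fold between the doses of either extract. GSTA1 and GSTA2 were chosen for a change past 1.5-fold between the doses in the same libraries. Of the 24 genes, chosen or not, 3 were called for the difference (12.5%). For GSTA2 the call did not hold in 10 of 12 fits that each left out a library, with differences between -1 and -0.85, while the call for GSTA1 held in all 12.

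Zizyphi and Longan, which share a code set, gave a single call among the 24 genes, GSTO1. It was called at all 3 doses of Zizyphi (2.09%, 0.702% and 4.42% of all tested genes called at the low, medium and high dose) and at the high dose of Longan (1.76%), each time as higher. The shares of all tested genes called higher were 1.14%, 0.418% and 2.55% along the doses of Zizyphi and 0.92% in high-dose Longan, and those called lower were 0.951%, 0.285% and 1.86%, and 0.842%. At the low and medium dose of Longan 0 genes passed edgeR's test, 2 each had an unadjusted p under 0.05, DESeq2 called 1 and 0, and 0.581% and 0.0666% of all tested genes were called by edgeR (0.375% and 0.0363% higher, 0.206% and 0.0303% lower). Between high and low dose 0 of the 24 genes were called by either tool in Zizyphi and in Longan, with 1 unadjusted p under 0.05 in each (0.351% and 0.00605% of all tested genes called, 0.212% and 0.00605% higher, 0.139% and 0% lower). The difference in dose effect between them was called for 0 of the 24 genes by either tool, with 1 unadjusted p under 0.05 (0% of all tested genes by edgeR). In high-dose Longan the log2 fold changes ran from -0.09 (SULT1A3) to 0.37 (GSTO1), and in high-dose Zizyphi from -0.14 (MGST1) to 0.41 (GSTO1).

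GSTO1 was above the vehicle in the means of all 19 treated groups and was called in 13 of them. Without vehicle replicate 1, 6 of these calls did not hold. It had 37.4, 49.9 and 48.7 CPM in the vehicle, the lowest group mean of the 20, and replicate 1, one of the libraries of lowest GC slope, was the lowest of all 60 libraries. With wortmannin it had 69.1, 61.5 and 62.7 CPM (0.51 ± 0.085 on the log2 scale). In high-dose Schisandrae it had 55.9, 60.9 and 58.9 CPM (log2 fold change 0.37 ± 0.086), in high-dose Zizyphi 60, 63.5 and 56.4 CPM (0.41 ± 0.086) and in high-dose Longan 58.5, 57 and 60.4 CPM (0.37 ± 0.085). None of these libraries overlapped the vehicle. Without vehicle replicate 1 the log2 fold changes were 0.28 in high-dose Zizyphi and 0.25 in high-dose Longan and neither passed the test, nor did those of low- and medium-dose Zizyphi (0.3 and 0.21), medium-dose Schisandrae (0.24) and medium-dose Polygalae (0.25). The same 6 calls did not hold without the 4 libraries of lowest GC slope (0.21 to 0.3), nor did that of high-dose Schisandrae (0.25). In fits of the compared libraries alone the calls of high-dose Longan (0.37), low- and medium-dose Zizyphi (0.42 and 0.33), medium-dose Schisandrae (0.35), medium-dose Polygalae (0.36) and low- and medium-dose Aucklandiae (0.46 and 0.49) did not hold. The call also did not hold without treated replicate 3 in medium-dose Schisandrae (0.27) and high-dose Longan (0.35), replicate 1 in low-dose Zizyphi (0.38), and replicate 2 or 3 in medium-dose Zizyphi (0.3 and 0.32). Within a code set GSTO1 was higher in high- than in low-dose Aucklandiae by 0.3 ± 0.083 on the log2 scale, a call that did not hold without low-dose replicate 2 (0.26), and no other extract had such a call.

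**Figure D5:**
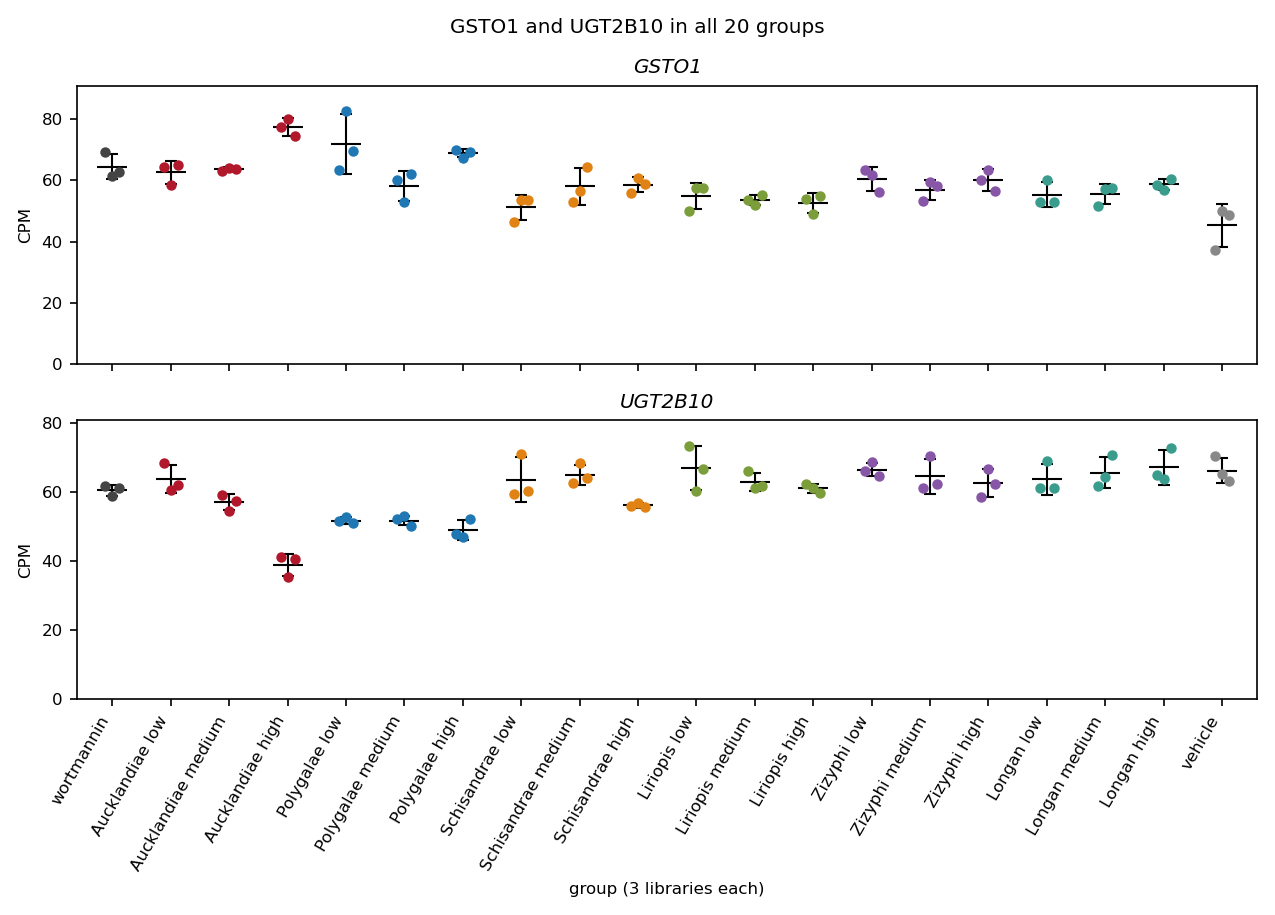
Level in CPM of GSTO1 and UGT2B10 in all 20 groups, with points for libraries and bars for the mean with SD (n = 3). GSTO1 has its lowest mean in the vehicle (45.3 CPM) and its highest in high-dose Aucklandiae (77.3 CPM). UGT2B10 is lowest in high-dose Aucklandiae (39 CPM).

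The remaining analysed genes stayed in a narrow range. GSTA4, which detoxifies 4-hydroxynonenal, ran between group means of 13.3 and 19.4 CPM, and GSTK1, the kappa class enzyme of mitochondria and peroxisomes, between 33.8 and 51.6 CPM. GSTM2 ran between 5.67 and 8.58 CPM, and MGST2 and MGST3, which can make leukotriene C4, between 30.7 and 44.2 and between 11.9 and 16.9 CPM. None of these 5 was called in any comparison with the vehicle. The ranges of the other genes were 16.9 to 22.8 CPM for GSTM3, 24.6 to 34.4 for GSTM4, 9.41 to 13.8 for GSTZ1, 1.39 to 2.55 for GSTO2, 74.3 to 161 for MGST1, 65.5 to 81.4 for UGT2A3 and 12.4 to 16.2 CPM for UGT2B7. Among sulfotransferases they were 78.7 to 135 CPM for SULT1A1, 20.2 to 36.3 for SULT1A2, 40.6 to 99.4 for SULT1A3, 47.9 to 124 for SULT1A4, 5.14 to 13.3 for SULT1C2, 1.57 to 3.25 for SULT1C4 and 63 to 158 CPM for SULT2A1.

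Genes that feed or follow conjugation were counted in lists, each read against the share of all tested genes called in the same comparison. Of 9 tested genes of glutathione supply and turnover, 6 rose and 1 fell in high-dose Aucklandiae (26.1% of all tested genes called). In high-dose Polygalae 5 rose and 0 fell (20.1%), in high-dose Schisandrae 4 rose and 0 fell (15.7%), and with wortmannin 2 rose and 6 fell (32.6%). In high-dose Longan 2 rose and 0 fell (1.76%), and in high-dose Zizyphi 1 rose and 0 fell (4.42%). Between high and low doses 6, 4 and 4 rose and 0 fell in Aucklandiae, Polygalae and Schisandrae (14.9%, 3.93% and 9.99%). The list's share exceeded that of all tested genes in each of these comparisons, and 0 of its genes were called in high-dose Liriopis (0.0484%). Its median log2 fold change against the vehicle was 0.38, 0.221 and 0.14 in the high doses of Aucklandiae, Polygalae and Schisandrae and -0.328 with wortmannin, against medians of 0, 0.006, -0.006 and 0.008 over all tested genes. GCLM, a subunit of the enzyme that starts glutathione synthesis, averaged 68.8 ± 4.93 CPM in high-dose Aucklandiae and 31.6 ± 2.42 CPM in the vehicle (SD, n = 3; log2 fold change 1.12 ± 0.078). GSR, which recycles oxidised glutathione, averaged 242 ± 5.54 CPM in high-dose Aucklandiae and 161 ± 7.45 CPM in the vehicle. SLC7A11, the cystine importer, averaged 88.1 ± 5.01 CPM in high-dose Schisandrae and 41 ± 1.87 CPM in the vehicle (log2 fold change 1.1 ± 0.086). In high-dose Schisandrae SLC7A11 rose and GSTA1 and GSTA2 fell, while in high-dose Aucklandiae all 3 rose. With wortmannin GCLM, GSR and SLC7A11 fell by 0.39, 0.36 and 0.34 on the log2 scale.

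Of 6 export pumps of conjugates, 5 rose and 0 fell in high-dose Aucklandiae (26.1% of all tested genes called). In high-dose Polygalae 4 rose and 0 fell (20.1%), in high-dose Schisandrae 4 rose and 0 fell (15.7%), and with wortmannin 3 rose and 1 fell (32.6%). In high-dose Zizyphi and Longan 1 rose and 0 fell in each (4.42% and 1.76%), and in high-dose Liriopis 0 were called (0.0484%). At the high against the low dose 5 rose and 0 fell in Aucklandiae (14.9%), 2 rose and 0 fell in Polygalae (3.93%), and 4 rose and 1 fell in Schisandrae (9.99%). The pump that fell in Schisandrae was ABCC6, which averaged 93.9 CPM at the high dose and 119 CPM at the low dose (log2 fold change -0.34 ± 0.07, edgeR adjusted p = 0.00044), and is named here after its values were seen. ABCC3, a pump of the blood-facing membrane, averaged 147 ± 2.77 CPM in high-dose Aucklandiae and 56.5 ± 1.82 CPM in the vehicle (SD, n = 3; log2 fold change 1.38 ± 0.055), and ABCC2, the pump of the bile-facing membrane, averaged 535 ± 10.3 CPM there and 266 ± 14.2 CPM in the vehicle (1.01 ± 0.04). ABCC1 averaged 243 ± 8.56 CPM in high-dose Aucklandiae and 154 ± 3.94 CPM in the vehicle. UGDH, which makes the glucuronic acid donor, averaged 414 ± 2.26 CPM in high-dose Aucklandiae and 292 ± 16.5 CPM in the vehicle (log2 fold change 0.5 ± 0.046), and 1 of the 4 genes of its list rose there and 0 fell, near the share of all tested genes (26.1%). In the high doses of Polygalae and Schisandrae 1 of the 4 rose and 0 fell in each (20.1% and 15.7%), and with wortmannin 0 rose and 2 fell (32.6%).

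Of 11 genes of sulfate donor supply, 4 rose and 2 fell in high-dose Aucklandiae (26.1% of all tested genes called) and 2 rose and 2 fell in high-dose Polygalae (20.1%). In high-dose Schisandrae 1 rose and 1 fell (15.7%), and with wortmannin 3 rose and 0 fell (32.6%), both near the share of all tested genes. PAPSS1, which makes the donor PAPS, averaged 56.6 ± 1.53 CPM in high-dose Polygalae and 68.4 ± 2.47 CPM in the vehicle (SD, n = 3; log2 fold change -0.27 ± 0.051). SLC26A1, a sulfate transporter, averaged 79.5 ± 3.29 CPM in high-dose Aucklandiae and 56 ± 6.39 CPM in the vehicle. Of 10 regulators, 2 rose and 2 fell in high-dose Aucklandiae (26.1%), 2 rose and 3 fell in high-dose Schisandrae (15.7%), and 3 rose and 2 fell with wortmannin (32.6%). In high-dose Polygalae 1 rose and 1 fell, at the share of all tested genes (20.1%), in high-dose Zizyphi 0 rose and 2 fell (4.42%), and in high-dose Liriopis and Longan 0 were called. NR1H4, the bile acid receptor FXR, averaged 22.9 ± 1.29 CPM in high-dose Schisandrae and 39.3 ± 3.1 CPM in the vehicle (log2 fold change -0.78 ± 0.069). KEAP1, the inhibitor of NRF2, averaged 96.6 ± 2 CPM in high-dose Aucklandiae and 66.6 ± 4.52 CPM in the vehicle. PPARA averaged 89.2 ± 3.26 CPM with wortmannin and 60.9 ± 3.06 CPM in the vehicle.

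Of 7 tested genes of other conjugation reactions, 4 rose and 0 fell with wortmannin (32.6% of all tested genes called), and 1 rose and 2 fell in high-dose Schisandrae (15.7%). In high-dose Aucklandiae 2 rose and 0 fell (26.1%) and in high-dose Polygalae 0 rose and 1 fell (20.1%), shares near or below those of all tested genes. BAAT, which conjugates bile acids with glycine or taurine, averaged 6.96 ± 0.386 CPM in high-dose Schisandrae and 3.9 ± 0.483 CPM in the vehicle (SD, n = 3; log2 fold change 0.84 ± 0.13). ACSM2B, an acyl-CoA synthetase with a near copy in ACSM2A, averaged 5.96 ± 0.57 CPM in high-dose Schisandrae and 11 ± 0.521 CPM in the vehicle (log2 fold change -0.89 ± 0.08). Of 4 genes of deconjugation, 1 rose and 0 fell with wortmannin, below the share of all tested genes (32.6%). It was ARSA, a lysosomal sulfatase, which averaged 33 ± 1.05 CPM with wortmannin and 21.6 ± 1.75 CPM in the vehicle. In the high doses of Aucklandiae, Polygalae and Schisandrae 1, 0 and 0 of these 4 rose and 0, 2 and 0 fell (26.1%, 20.1% and 15.7%). For the genes given with means and SDs in these lists, edgeR's adjusted p lay between 3.2e-25 and 7.4e-05.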

How the data were processed

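The authors deposited expected counts, RSEM's estimated read numbers, which may carry fractions, as a table of 60675 genes by 60 libraries. Tools listed, per the submitters' processing notes, are STAR 2.7.3a, RSEM 1.3.3, Trim Galore 0.6.5 and FastQC 0.11.9, beside the genome builds GRCh38 and hg38, without their roles. Per the labels, libraries were directional mRNA libraries read as 100-base pairs. The annotation release, like the strand setting, was not given in the sources used here. RSEM divides reads among similar genes, so levels of near-identical genes depend on that division. Gene names came from the symbols supplied with the reference, and from GENCODE 29 for 2 genes.

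Expected counts were rounded, filtered with filterByExpr by group (16517 genes, untested genes holding 0.0532% of counts) and scaled with TMM (factors of 0.92 to 1.08). A single edgeR 4.0.16 quasi-likelihood model with 20 group terms covered the 60 libraries (in R 4.3.3 with limma 3.58.1). Tests were 2-sided, with Benjamini-Hochberg adjustment over all 16517 genes and a threshold of 0.05. Fold changes are treated over vehicle, or high over low dose, with the SE taken from the F statistic. Over all genes the median log2 fold change lay within 0.01 of 0. Dose effects were compared within a code set, as the difference between the high minus low contrasts, and reported for genes past 1.5-fold and the threshold in 1 of the extracts. The 3 vehicle libraries enter every comparison with the vehicle, and these comparisons were therefore not correlated or overlapped. Scripts were tested on simulated counts.

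The genes and lists were chosen with earlier results of these data known. Every library's value is given for the 6 genes with the largest absolute log2 fold change among those called in each of 7 comparisons (wortmannin and the 6 high doses), and for genes called in 4 or more of them. Whether the groups of a gene overlapped is described for genes already called and is no further test. Up to 3 genes per list are named by smallest p. Shared windows are 100-base stretches of GENCODE 29 transcripts found in another gene. Alternatives were RLE scaling, no or a stricter filter, a replicate block, DESeq2 1.42.0, a fit of each comparison's own libraries, leaving out 4 libraries of lowest GC slope and leaving out each library. Counting SULT1A3, SULT1A4 and their read-through genes as 1 gene was added after seeing the data.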

Additional observations from a re-analysis of the deposited data

Results flagged for a closer look

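Between extracts of the same code set, the effect of dose (high minus low, log2) was compared by an edgeR test of the difference. Among genes past 1.5-fold and the threshold between the doses of an extract, it differed for 5 in Aucklandiae against Polygalae. These genes were chosen in the same libraries that the test of the difference uses. Without that choice 7 of the 24 genes were called for it, and 6.82% of all tested genes. The differences were 1.37 for GSTA1, 2.07 for GSTA2, 0.94 for SULT1A3, 0.95 for SULT1A4 and -0.63 for UGT2B10. SULT1A3 and SULT1A4 cannot be separated well by their reads, and counted as 1 gene with their read-through transcripts they differed by 0.81 ± 0.11 (SE; edgeR adjusted p = 5.7e-07). In Schisandrae against Liriopis the differences were -0.98 for GSTA1 and -0.95 for GSTA2, genes chosen in the same way. Without that choice 3 of the 24 genes were called for the difference, and 4.97% of all tested genes. The call of GSTA2 in this pair did not hold in 10 of 12 fits that each left out a library.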

How the results depend on the processing

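Of 75 gene calls, all kept their direction under every alternative, and RLE scaling, the stricter filter and DESeq2 changed none of them. Without a filter 3 no longer passed, with each comparison's own libraries 14, without the 4 libraries of lowest GC slope 18, and when the most influential library was left out 24. Among counts of called genes, the absence of a filter gave 1 in high-dose Liriopis (0 with it), 2 in high-dose Zizyphi (1), 2 in high against low Polygalae (0), 6 in high against low Schisandrae (3), 22 over the medium doses (14) and 14 over the low doses (7). Without the 4 libraries of lowest GC slope the counts were 0 in high-dose Zizyphi, 0 in high-dose Longan, 6 over the medium doses and 1 in Schisandrae against Liriopis (2). Own libraries gave 0 in high-dose Longan, 2 in high against low Polygalae, 5 in high against low Schisandrae and 5 over the medium doses. The share of all tested genes called moved as well. Without a filter it was 1.44% in high-dose Liriopis (0.0484% with it) and 2.42% in high-dose Zizyphi (4.42%). Without the 4 libraries it was 1.38% in high-dose Zizyphi and 0.443% in high-dose Longan (1.76% with them). With own libraries it was 0.14% in high-dose Longan. For the other counts here no such share is given, and they are not read as results about these genes. The cause was not tested. Leaving out 1 library gave 8 to 11 calls with wortmannin, 11 to 13 in high-dose Aucklandiae, 6 to 7 in high-dose Polygalae, 6 to 8 in high-dose Schisandrae, 0 to 1 in high-dose Zizyphi and Longan, 7 to 19 over the medium doses (7 without vehicle replicate 1), 5 to 7 over the low doses, 10 to 12 in high against low Aucklandiae, 5 to 7 in Aucklandiae against Polygalae and 1 to 2 in Schisandrae against Liriopis. The same-numbered replicates correlated above 0.1 in all 3 pairs in 0 of 25 comparisons, so the numbers were not taken to pair libraries. With the replicate block all 75 calls passed and 13 genes were called in high-dose Aucklandiae. Genes near 1 CPM, such as UGT2B4, are limited by counting.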

Other observations

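Summed over the 52 genes, conjugating enzymes took 1230 ± 48.3 CPM in high-dose Aucklandiae and 854 ± 22.2 CPM in the vehicle (SD, n = 3). The 13 SULT genes took 512 ± 23.5 CPM in high-dose Aucklandiae and 309 ± 1.36 CPM in the vehicle, and the 10 UGT2 genes took 135 ± 3.94 CPM in high-dose Aucklandiae and 162 ± 11 CPM in the vehicle. These sums were not tested.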
